A study of Homo sapiens with 8 samples.

Results

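The regions described here are stretches of the genome of OPM-2 cells that were called as bound after culture with the solvent DMSO and in no treated culture. They were chosen from 4 deposited peak lists of a chromatin immunoprecipitation experiment. Peaks on chromosomes 1 to 22 and X that shared at least 1 bp were merged across the lists, and a merged region was kept where it held a DMSO peak and no peak of the other 3 lists. This gave 10968 of 67328 regions, or 16.3%. Each of them consisted of 1 DMSO peak, so they made up 21.5% of the 50946 DMSO peaks. The calls themselves chose the regions, so their number and their peak strength are given as a description and without a test.

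OPM-2 is an established human multiple myeloma cell line in which the t(4;14) translocation has put NSD2 and FGFR3 next to immunoglobulin control elements. The cultures received 1 µM of the vitamin A derivative all-trans retinoic acid (ATRA, which binds and activates RARA, RARB and RARG), 1 µM pomalidomide (POM, a drug that directs the cereblon ubiquitin ligase to degrade IKZF1 and IKZF3), both compounds (ATRA+POM) or the solvent DMSO, each for 72 h. Each treatment had 1 ChIP library and 1 input library, all from this 1 cell line. The labels do not name the antibody, so no mark or factor is attached to a peak here. There were no replicates, no test of a treatment was possible, and all intervals are 95% Wilson or Newcombe intervals that cover counting error only.

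Peaks of such an experiment lie where a chromatin mark or a bound protein is enriched over the input. In most cell types they gather at promoters, which are rich in G and C where they belong to widely used genes, and at enhancers inside or between genes. Plasma cells and myeloma cells secrete large amounts of protein and depend on the unfolded protein response, in which misfolded proteins in the endoplasmic reticulum signal through ERN1, EIF2AK3 and ATF6. A related pathway, the integrated stress response, acts through the kinases EIF2AK3 and EIF2AK4 and the factor ATF4, with TRIB3, CHAC1 and SESN2 among its targets.

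Promoter windows of 6 genes, each overlapping a DMSO-only region, show the sequence at such gene starts. Except at TRIB3, part of each window lies outside the region. SPATA2L and P2RY10 had the strongest DMSO-only regions at a promoter of a protein-coding gene that touched no other region. SESN2, CHAC1, EIF2AK4 and TRIB3 are the members of the stress response list with a DMSO-only region at an annotated end of the gene. Each sequence is a RefSeq window of GRCh38.p14, 300 bases in all, read 5′ to 3′ along the gene. It runs from 250 bases before to 50 bases after an annotated start. At TRIB3 that start lies inside the gene span used elsewhere. Capitals mark the GC box GGGCGG, the CCAAT box CCAAT and the stress response element TGATGNAA on either strand.
SPATA2L, chr16:89701656-89701955, minus strand: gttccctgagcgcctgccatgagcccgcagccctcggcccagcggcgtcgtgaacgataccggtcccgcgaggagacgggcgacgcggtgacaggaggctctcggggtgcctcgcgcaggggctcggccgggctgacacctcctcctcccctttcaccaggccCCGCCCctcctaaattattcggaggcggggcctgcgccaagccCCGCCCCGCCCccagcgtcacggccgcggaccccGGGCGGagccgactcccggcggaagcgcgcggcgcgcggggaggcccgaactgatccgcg
P2RY10, chrX:78945141-78945440, plus strand: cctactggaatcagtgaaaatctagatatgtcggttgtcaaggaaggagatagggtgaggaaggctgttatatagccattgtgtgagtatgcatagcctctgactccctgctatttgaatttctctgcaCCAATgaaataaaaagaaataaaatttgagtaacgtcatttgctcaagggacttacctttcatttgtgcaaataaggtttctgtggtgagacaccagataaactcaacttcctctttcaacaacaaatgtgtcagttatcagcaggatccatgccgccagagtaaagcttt
SESN2, chr1:28259268-28259567, plus strand: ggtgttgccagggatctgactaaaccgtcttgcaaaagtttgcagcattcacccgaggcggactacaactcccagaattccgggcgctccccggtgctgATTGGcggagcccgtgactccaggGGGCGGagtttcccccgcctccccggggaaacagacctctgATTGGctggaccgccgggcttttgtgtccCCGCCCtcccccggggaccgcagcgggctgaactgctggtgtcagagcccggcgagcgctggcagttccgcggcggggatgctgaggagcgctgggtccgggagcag
CHAC1, chr15:40953221-40953520, plus strand: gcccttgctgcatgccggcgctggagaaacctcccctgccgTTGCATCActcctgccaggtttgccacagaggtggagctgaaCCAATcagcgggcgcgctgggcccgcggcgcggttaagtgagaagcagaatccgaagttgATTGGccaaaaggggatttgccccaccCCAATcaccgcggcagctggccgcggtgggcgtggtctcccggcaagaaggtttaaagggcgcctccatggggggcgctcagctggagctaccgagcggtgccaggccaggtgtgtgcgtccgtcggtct
EIF2AK4, chr15:39933865-39934164, plus strand: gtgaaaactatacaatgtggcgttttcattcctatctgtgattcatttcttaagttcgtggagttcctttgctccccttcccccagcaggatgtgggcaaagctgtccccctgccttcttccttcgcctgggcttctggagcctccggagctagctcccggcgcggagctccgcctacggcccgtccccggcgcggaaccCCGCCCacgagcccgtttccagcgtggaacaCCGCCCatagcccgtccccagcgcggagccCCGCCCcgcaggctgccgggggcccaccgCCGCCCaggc
TRIB3, chr20:381056-381355, plus strand: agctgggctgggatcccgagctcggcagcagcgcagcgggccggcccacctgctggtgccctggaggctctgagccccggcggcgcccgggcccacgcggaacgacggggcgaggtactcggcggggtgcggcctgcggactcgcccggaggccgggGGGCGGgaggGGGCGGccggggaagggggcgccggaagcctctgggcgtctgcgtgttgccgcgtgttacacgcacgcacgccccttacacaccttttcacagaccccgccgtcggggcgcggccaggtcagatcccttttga

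Of these 6 windows 5 were rich in G and C, with 75.7% in SPATA2L, 75.3% in TRIB3, 67.0% in SESN2, 66.0% in EIF2AK4 and 65.3% in CHAC1. The P2RY10 window had 40.0%. GC boxes numbered 4 in SPATA2L, 4 in EIF2AK4, 2 in SESN2, 2 in TRIB3, 0 in CHAC1 and 0 in P2RY10. CHAC1 held the only TGATGNAA match among the 6, together with 3 CCAAT boxes, all of them upstream of its DMSO-only region. The DMSO-only region that overlapped the window had 139 summit reads at SPATA2L, 130 at P2RY10, 43 at SESN2, 30 at CHAC1, 26 at EIF2AK4 and 25 at TRIB3. It covered the whole window only at TRIB3. At P2RY10, SESN2, CHAC1 and EIF2AK4 it met only the downstream end of the window. Summit reads are the reads stacked at the highest point of a peak, recovered from the deposited fold enrichment and p. A peak of another list began 250 bp from the SPATA2L region, 303 bp from that of SESN2, 269 bp from that of CHAC1, 201 bp from that of EIF2AK4 and 136 bp from that of TRIB3. At P2RY10 the nearest one was 21522 bp away.

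The 4 libraries differed in depth before any region was compared. Relative to DMSO, depth inferred from the lowest background values was 0.133 in the library labelled ATRA, 0.927 in that of POM and 0.902 in that of ATRA+POM. The lists held 36742, 54279 and 47193 peaks in that order, and the DMSO list 50946. All 8 plasma cell markers, SDC1, TNFRSF17, CD38 and IRF4 among them, had peaks in each list, while of 8 markers of other lineages 2 had peaks in the ATRA-labelled list, 3 with POM, 3 with ATRA+POM and 2 with DMSO. CYP26A1, the retinoic acid hydroxylase that ATRA induces in many cells, held 0 peaks in the library labelled ATRA, 2 with POM, 1 with ATRA+POM and 1 with DMSO. That library is therefore named by its label.

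DMSO-only regions were weak peaks. They had a median of 37 summit reads, with 22 at the 10th and 70 at the 90th percentile, a lowest value of 13 and a highest of 196. The DMSO list as a whole had a median of 78 reads, which 728 of the DMSO-only regions, or 6.64%, reached. Their median fold enrichment over the background was 5.09, the authors' own value per peak, and 404 of them, or 3.68%, had a fold of at least 10. Regions called only with POM were about as weak in their own list, with a median of 35 reads and a fold of 5.55. Regions called in all 4 lists had 221 DMSO reads and a fold of 21.6. DMSO-only regions were also narrow, with a median width of 229 bp against 1400 bp for the regions of all 4 lists.

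The share of DMSO peaks that had no partner in another list declined with strength. Among the eighth of DMSO peaks with the fewest reads, 13 to 30, 57.7% were DMSO-only. In the next 5 eighths the share was 45.5%, 34.8%, 23.1%, 9.64% and 1.49%. Only 1 DMSO-only region lay above the sixth eighth, with 196 reads at MALRD1. The POM list ran from 45.3% POM-only peaks in its weakest eighth to 1.02% in its seventh, so it declined with strength as well.

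**Figure D1:**
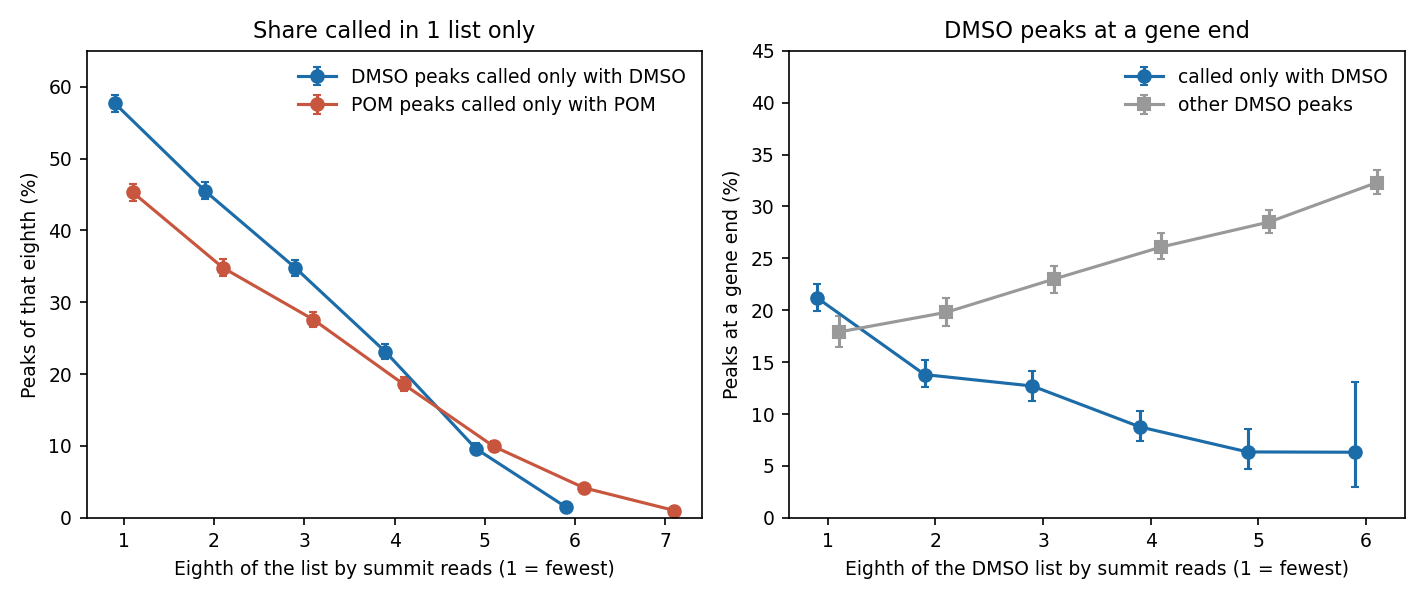
Left, percent of the peaks of each eighth of a list, ordered by summit reads, that were called in that list alone, for DMSO (blue) and POM (red). Right, percent of DMSO peaks at a gene end by eighth, for DMSO-only peaks (blue) and the other DMSO peaks (grey); bars are 95% Wilson intervals, and eighths with fewer than 20 single-list peaks are not drawn. The DMSO-only share declines from 57.7% to 1.49%, and the share at a gene end declines from 21.2% to 6.32% in DMSO-only peaks while it climbs from 17.9% to 32.3% in the others.

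How many of the DMSO-only regions another library could have shown was computed from depth alone. With reads and background scaled to the ATRA-labelled depth, 2185 of the 10968 regions, or 19.9% (19.2 to 20.7), would still have had the −log10 p of 5 that all deposited peaks reach. The same scaling to POM left 99.9% and to ATRA+POM 99.8%. The reads at regions called in all 4 lists gave other ratios to DMSO than the inferred depth. The median was higher in the ATRA-labelled library, at 0.151 against 0.133. It was lower in the POM library, at 0.875 against 0.927, and in the ATRA+POM library, at 0.478 against 0.902. Scaled by these, 29.1%, 99.6% and 65.6% of the DMSO-only regions would have passed. A peak of the same strength as most DMSO-only regions was thus not detectable at the depth of the ATRA-labelled library. In a bulk library fewer cells with a peak and less signal per cell cannot be told apart.

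A single base decides membership at the edge of the rule. Of the DMSO-only regions, 41 had a peak of another list within 20 bp, with a median of 31 reads and a fold of 5.08. Another 47 DMSO peaks shared 1 to 20 bp with a peak of another list and so stayed out, with a median of 30 reads and a fold of 4.59. More widely, 4409 DMSO-only regions, or 40.2% (39.3 to 41.1), lay within 1000 bp of a peak of another list, and the median gap was 3.79 kb. POM-only regions did so in 37.4% (36.4 to 38.3).

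The 10 DMSO-only regions with the most reads had 158 to 196 reads, and none lay at a gene end. The highest, chr10:19518174-19519400, was inside MALRD1, a regulator of bile acid synthesis in the intestine, with 196 reads over a background of 18.5 and a fold of 10.1. The next lay 6.59 kb from LOC124907776 on chromosome 2, with 181 reads and a fold of 6.00. The third lay 58.4 kb from ZNF438 with 172 reads. Those near RGS4, BRINP3, LOC124900855 and ASB3 lay 93.7, 59.8, 28.7 and 224 kb from the nearest gene end. The region in CELF2, an RNA-binding splicing regulator, had 162 reads and was 86.8 kb from any peak of another list. The region 2.89 kb from ERCC4, a DNA repair endonuclease, stood out by fold among the 10, with 15.3, and had 168 reads. The region 1.13 kb from ANO5 had 158 reads and a fold of 9.80.

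DMSO-only regions lay at gene ends less often than the other regions and more often than regions called only with POM or only with ATRA+POM. Gene ends are the 1000 bp on each side of the first and last annotated base of protein-coding genes. Midpoints of 1634 DMSO-only regions lay there, or 14.9% (14.2 to 15.6), against 19.6% (19.2 to 19.9) of all other regions, a difference of -4.66 percentage points (-5.40 to -3.91). POM-only regions had 6.59%, which left DMSO-only regions 8.30 points higher (7.47 to 9.13). With each list cut to its stronger 50% before the rule was applied, this gap was 16.6 points. The regions of that setting include peaks whose partner in another list was among the peaks dropped. With peaks within 500 bp merged the gap was 3.37 points. ATRA+POM-only regions had 2.70%, a difference of 12.2 points (11.3 to 13.0). Regions that DMSO shared with 1 other list stood on both sides of the DMSO-only share, with 30.8% for DMSO and POM alone, 5.38% for DMSO and the ATRA-labelled list alone and 6.96% for DMSO and ATRA+POM alone. Regions of all 4 lists had 33.7%. At a gene start, taken from the RefSeq promoter table, the order was the same, with 17.4% of DMSO-only regions, 10.4% of POM-only, 5.14% of ATRA+POM-only and 36.0% of regions of all 4 lists. Inside a protein-coding gene lay 56.9% of DMSO-only regions and 56.0% of all others, and the interval of that difference, -0.129 to 1.90 points, includes 0. A further 32.2% of DMSO-only regions lay in neither a protein-coding nor a long noncoding RNA gene.

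**Figure D2:**
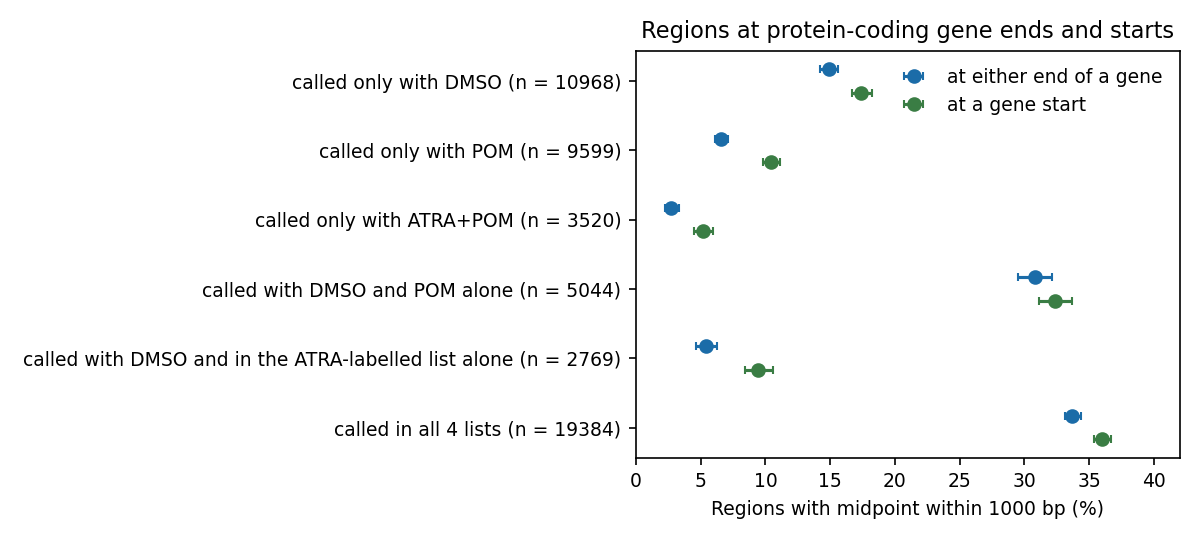
Percent of regions whose midpoint lay within 1000 bp of either annotated end (blue) or of a start (green) of a protein-coding gene, for 6 sets of regions, with 95% Wilson intervals. DMSO-only regions, at 14.9% and 17.4%, sit above the POM-only and ATRA+POM-only sets and above the set shared by DMSO and the ATRA-labelled list alone, at 5.38% and 9.43%. They sit below the sets shared by DMSO and POM alone and by all 4 lists.

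Measured by summit reads, strength and position went together in opposite ways inside and outside the DMSO-only set. Inside the set, fold pointed the other way. The gene-end share was 31.2% where fold was at least 10 and 14.9% without that limit. The other DMSO peaks were not split by fold. Among the weakest eighth of DMSO peaks, 21.2% of the DMSO-only and 17.9% of the other peaks were at a gene end, a difference of 3.32 points (1.34 to 5.26). In the fourth eighth the shares were 8.76% and 26.1%, and in the sixth 6.32% and 32.3%. Weak POM peaks ran otherwise: in the weakest POM eighth 9.54% of POM-only and 32.5% of the other POM peaks were at a gene end. DMSO-only regions at gene ends were mostly neighbours of called signal, since 66.9% of them (64.6 to 69.1) lay within 1000 bp of a peak of another list, against 35.5% (34.6 to 36.5) of those elsewhere. Among the 6559 DMSO-only regions farther than that, 8.25% were at a gene end, against 4.62% of the corresponding POM-only regions.

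The 10 strongest DMSO-only regions at a gene end had 109 to 139 reads. SPATA2L, a relative of SPATA2, which binds the deubiquitinase CYLD, headed them with 139 reads and a fold of 10.9, and the region lay 219 bp from its start. ANXA3, a calcium-dependent membrane binding protein, had 136 reads at the far end of the gene and a fold of 4.92. P2RY10, a receptor for lysophosphatidylserine on lymphoid cells, had 130 reads and a fold of 11.1. ZSWIM4 had 122 reads, TOM1L2, an endosomal trafficking adaptor, 116, and SNAPC2, a subunit of the complex that activates small nuclear RNA genes, 115. FBXO9, a ubiquitin ligase subunit studied in myeloma, had 113. EVI2B, a membrane protein of blood cells whose gene lies inside an intron of NF1, had 111 reads, and no peak of any other list came closer than 62.2 kb. TTC12 had 110 reads. RGS1, a brake on G protein signalling in B cells, had 109 reads, a fold of 3.95 and a peak of another list 213 bp away.

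Promoters that overlapped a DMSO-only region were rich in G and C. Of 34789 RefSeq promoter windows 1105 did so, and their median G and C content was 70.3%, against 58.7% for all promoters, 58.7% for the 319 that overlapped a POM-only region, 67.7% for those with a region of DMSO and POM alone and 64.3% for those with a region of all 4 lists. All promoters were split into 5 equal groups by this content. In the richest group, from 70.3% to 94.0%, 560 of the 3378 with a DMSO peak overlapped a DMSO-only region, which is 16.6% (15.4 to 17.9). In the 3 groups below it the share was 7.48% (6.67 to 8.38), 5.62% (4.82 to 6.53) and 4.57% (3.57 to 5.82) from richer to poorer, and in the poorest group, with 505 such promoters, it was 10.5% (8.11 to 13.5). POM-only regions were found at 1.58% (1.16 to 2.15) of the promoters with a POM peak in the richest group and at 6.90% (5.02 to 9.40) in the poorest. Base composition therefore moved with the difference between DMSO-only and POM-only regions at promoters, and its part in that difference was not tested.

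**Figure D3:**
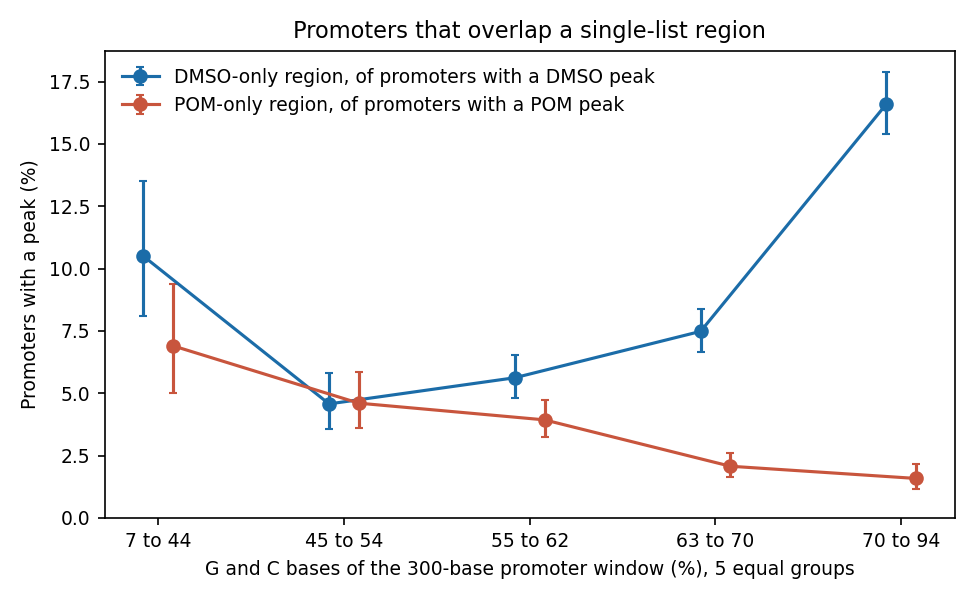
Percent of the promoters with a peak of a list that overlapped a region called in that list alone, in 5 equal groups of promoters by G and C content (percent of 300 bases), for DMSO (blue) and POM (red), with 95% Wilson intervals. The DMSO-only share is 16.6% in the richest group, where the POM-only share is 1.58%.

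Short motifs were counted in the same promoters. A GC box, GGGCGG on either strand, was present in 78.8% (76.3 to 81.1) of promoters that overlapped a DMSO-only region, against 51.7% of those with a POM-only region, 67.7% of those with a region of all 4 lists and 44.9% of all promoters. The ETS core CCGGAA was in 25.5% of the promoters with a DMSO-only region, in 35.4% of those with a region of all 4 lists and in 17.2% of all promoters. Several motifs were rarer than in all promoters both here and where all 4 lists shared a region. The TATA box TATAAA was in 4.52% of promoters with a DMSO-only region, against 5.52% of those with a region of all 4 lists and 11.6% of all promoters. AGATAA, the GATA core, was in 3.89%, against 4.95% and 10.4% in the same order. The AP-1 site TGANTCA was in 2.81%, against 4.43% and 7.69%. The retinoic acid receptor hexamer AGGTCA was in 9.77%, against 9.77% and 13.8%. A direct repeat with a spacer of 5 bases was sought in the looser form RGKTCA, where R is A or G and K is G or T. That repeat was in 0 of 1105, which allows a share of up to 0.271% (3 counts). It was in 0.0661% of promoters with a region of all 4 lists and in 0.0891% of all promoters. Both shares lie under that limit, so the count of 0 cannot show whether the repeat was rarer here. The Ikaros core TGGGAA was in 18.7%, against 22.6% with a region of all 4 lists and 24.0% of all promoters. In all, 22 motifs were searched on both strands, and a match is a string of letters and not a bound site.

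DMSO-only regions made up 12.2% of the regions of chromosome 19 and 19.4% of those of chromosome 13, the lowest and the highest of the 23 chromosomes. Per Mb these chromosomes stood the other way round, with 4.32 DMSO-only regions on chromosome 19 and 3.10 on chromosome 13. Chromosomes with fewer genes tended to have larger shares. Chromosome 13 with 2.96 protein-coding genes per Mb, chromosome 18 with 3.36 and chromosome 4 with 4.05 had 19.4%, 19.1% and 18.5%, while chromosome 17 with 14.0 genes per Mb had 12.4%. Spearman's rho between share and gene density was -0.786 over the 23 chromosomes, which share the same 4 libraries, and 0.169 for POM-only regions. It is given as a description.

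**Figure D4:**
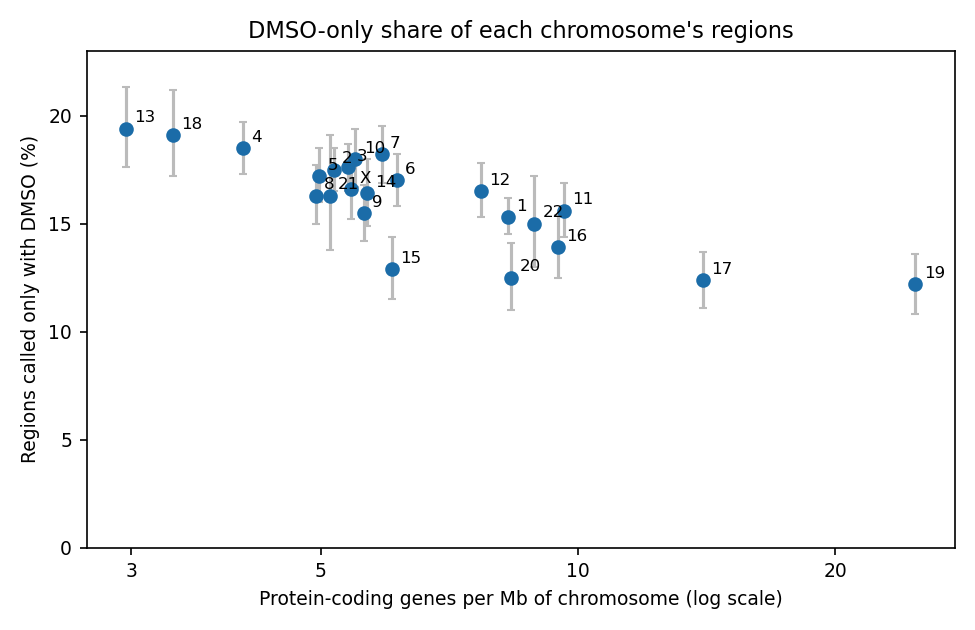
Percent of the merged regions of each chromosome that were DMSO-only against protein-coding genes per Mb (log scale), with 95% Wilson intervals and 1 point per chromosome. The gene-poor chromosomes 13, 18 and 4 lie highest, between 18.5% and 19.4%, and chromosome 19 lies lowest at 12.2%.

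At the scale of 2 Mb the median window with at least 20 regions had 15.8% DMSO-only regions, and 80% of the 1318 windows lay between 6.79% and 28.1%. The window with the largest share, 54000001 to 56000000 on chromosome 10, had 21 of 35 regions DMSO-only, or 60.0% (43.6 to 74.4), and 1 POM-only. It holds PCDH15, a cadherin of the inner ear and retina. Other windows with large shares, each named by the gene with the most of them, were CCDC169-SOHLH2 on chromosome 13 with 15 of 29, LUZP2 on chromosome 11 with 17 of 34 and GATA3 on chromosome 10 with 10 of 21. Of their DMSO-only regions 7, 7 and 2 in that order lay at the locus of the named gene. These windows were picked for their shares, so the shares are no test.

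DMSO-only regions also stood in groups. Of them 3712, or 33.8% (33.0 to 34.7), lay within 5000 bp of another one, in 1686 groups, and 9 groups held 5 or more. POM-only regions did so in 38.4% (37.4 to 39.3), with 16 groups of 5 or more. The DMSO groups of 5 or more lay at IQCB1 and EAF2 with 8 regions, at EDEM3, HERPUD1 and TXNDC5 with 7 each, at ACBD3, STRBP and P2RY10 with 6 each, and at MBNL1 and SLC25A31 with 5 each. The group at TXNDC5 lay at the neighbouring gene BMP6 as well. EDEM3, HERPUD1 and TXNDC5 act in the endoplasmic reticulum: EDEM3 trims the sugar chains of misfolded proteins, HERPUD1 is a part of the machinery that degrades them, and TXNDC5 is a protein disulfide isomerase. These genes were named for their groups after the values were seen.

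At the EDEM3 locus, the gene body with 5000 bp on both sides, the ATRA-labelled list had 12 peaks, POM had 16, ATRA+POM had 11 and DMSO had 24. Of 26 regions there, 13 were DMSO-only, with 31 to 70 reads and a median of 37. Regions called with the treatments were thus present in the same gene, and the DMSO-only ones stood among them. At HERPUD1 the lists held 5, 6 and 7 peaks with the treatments in the same order and 12 with DMSO, and the 7 DMSO-only regions, from 93 to 2106 bp from a peak of another list, had 23 to 46 reads. At TXNDC5 there were 7, 9 and 6 peaks with the treatments and 16 with DMSO, and its 7 DMSO-only regions had 17 to 33 reads. STRBP, an RNA-binding protein, had 11, 9 and 5 peaks with the treatments and 15 with DMSO, and the strongest of its 7 DMSO-only regions had 78 reads and a fold of 11.7.

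P2RY10 differed from these in having no peak with any treatment. Its 6 DMSO peaks on chromosome X had 85, 130, 27, 27, 57 and 29 reads along the gene from its start, with folds of 5.64, 11.1, 4.07, 4.61, 6.78 and 5.45. SLC25A31, a mitochondrial ADP and ATP carrier of the germ line, likewise had 6 peaks with DMSO and 0 in each other list. In all 476 protein-coding genes, or 2.38% (2.18 to 2.60), had peaks with DMSO and in no other list at the locus, 28 of them with 3 or more regions. POM had 359 such genes, or 1.80% (1.62 to 1.99), and 23 with 3 or more. Among the 28 were POU2F2, the lymphoid octamer factor OCT2, with regions of up to 82 reads and a fold of 15.1, PHF13 with 4 regions, PPP6R2 with 4, RAC3 with 3 and MSRB3 with 3, the last with up to 148 reads. PAX5, the B cell factor that plasma cells silence, had 1 DMSO peak with 34 reads and 0 in each other list.

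Of 19974 protein-coding genes, 4872 or 24.4% had a DMSO-only region at the locus, 8.10% had one at a gene end and 3.84% had 3 or more at the locus. These are the backgrounds for the gene lists, and gene length moved with them: of 4 equal groups of genes by length, the shortest, with a median of 3.89 kb, had a DMSO-only region in 11.5% and the longest, with a median of 128 kb, in 43.7%, and genes of at least 500 kb in 78.7%. The genes with the most were PCDH15 with 21, NAALADL2 with 16, EDEM3 with 13, ARHGAP26 with 12, IQCB1 with 11 and RABGAP1L with 10. PCDH15, of 1825 kb, had 8 peaks in the ATRA-labelled list, 10 with POM, 6 with ATRA+POM and 29 with DMSO. NAALADL2 had 19, 15 and 16 peaks with the treatments and 31 with DMSO. EDEM3 at 64.6 kb and IQCB1, a ciliary protein, at 65.3 kb were the short ones among these, with 17.4 and 14.6 DMSO-only regions per 100 kb, against 0.548 over all gene loci.

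The stress response list stood high beside the background in genes of ordinary length. Of its 19 genes, with a median length of 17.5 kb, 12 or 63.2% had a DMSO-only region at the locus, 4 at a gene end, and 6 had 3 or more. Together they held 31 regions, or 2.95 per 100 kb. HERPUD1, given above for its group, is in this list and held 7 of the 31. The loci of the list were dense in regions of every kind: of their 142 regions 21.8% were DMSO-only, against 15.7% at all gene loci. POM-only regions were at 5 of the 19 genes, where 17.0% of all genes had one, with 0.952 per 100 kb against 0.400 over all gene loci. ATF6, a sensor of the unfolded protein response that becomes a transcription factor, had 4 with up to 115 reads, with 13, 6 and 5 peaks in the ATRA-labelled, POM and ATRA+POM lists and 13 with DMSO. EIF2AK4, the kinase that senses lack of amino acids, had 3 with up to 78 reads. TRIB3, a pseudokinase induced by ATF4, had 3 with 43, 25 and 37 reads, and its locus held 2 peaks in the ATRA-labelled list, 0 with POM, 0 with ATRA+POM and 5 with DMSO. SESN2, a regulator of mTORC1 signalling, had 1 with 43 reads, and CHAC1, which degrades glutathione, 1 with 30. ERN1 had 4 with up to 25 reads, and HSPA5, the main chaperone of the endoplasmic reticulum, 1 with 34. The count for the list was lower in narrower sets of regions. Among DMSO-only regions farther than 1000 bp from a peak of another list 8 of the 19 genes had one, against 13.3% of all genes. With a fold of at least 10 it was 1 of 19, against 1.60% of all genes. ATF4, DDIT3, DNAJB9 and SEL1L, also of this list, held none. TRIB3, CHAC1, ERN1, HSPA5 and these 4 were named after their values were seen. The list was chosen with earlier results in view, so the count is a description.

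**Figure D5:**
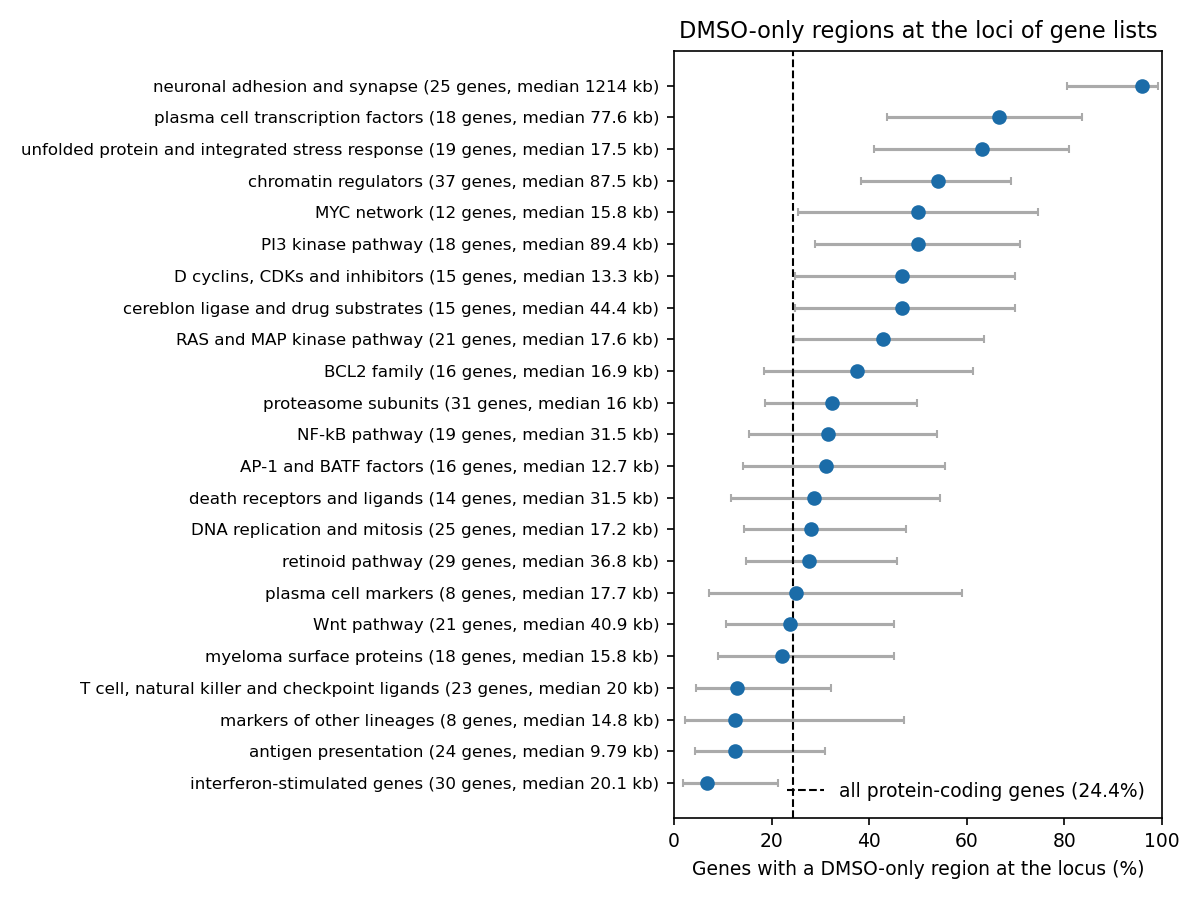
Percent of the genes of each of 23 lists with a DMSO-only region at the locus, with 95% Wilson intervals, the number of genes found and their median length. The dashed line is the 24.4% of all protein-coding genes; the neuronal list of very long genes lies highest at 96.0% and the interferon list lowest at 6.67%.

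Lists with long genes were high as well. In the neuronal adhesion and synapse list, with a median length of 1214 kb, 24 of 25 genes had a DMSO-only region, among them CSMD1, PCDH15 and DLG2 with up to 94, 90 and 77 reads. Its density, 0.332 per 100 kb, was close to the 0.328 of all genes of at least 500 kb, while 28.6% of its 388 regions were DMSO-only, against 15.7% at all gene loci. Of 37 chromatin regulators 20 had one, among them NSD3 with up to 80 reads, SMARCA2 with 74, HDAC9 with 65 and SMARCA4 with 60, and HDAC9 held 10 regions. Of 18 plasma cell transcription factors 12 had one. Of all regions at the chromatin regulators 16.9% were DMSO-only, and of those at the plasma cell transcription factors 20.3%. MEF2C held 6 with up to 110 reads, and POU2F2, TCF4 and MAF had up to 82, 63 and 55.

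Growth and survival pathways followed, to be read beside the 24.4% of all protein-coding genes with a DMSO-only region. In the RAS and MAP kinase list 9 of 21 genes had a DMSO-only region, and 5 had one at a gene end. NF1 had up to 111 reads, in the region also given for EVI2B, which lies inside NF1 at the end of EVI2B. BRAF had up to 80 reads and no DMSO-only region at a gene end. In the PI3 kinase list, with a median length of 89.4 kb, it was 9 of 18, but 12.2% of the regions there were DMSO-only, against 15.7% at all gene loci, with AKT2 at 89 reads and DEPTOR, an mTOR inhibitor that is high in myeloma, at 49 with 4 regions. Among D cyclins, CDKs and their inhibitors it was 7 of 15, with CDK4 at 53 reads, RB1 at 39 and 9 regions at CDK6. In the MYC network 6 of 12 genes had one, with MXI1 at 62 and MGA at 46 reads. The BCL2 family had 6 of 16, with 5 regions and up to 81 reads at BCL2, 48 at BCL2L1, 47 at BBC3 and 45 at BCL2L2. The cereblon ligase and drug substrate list had 7 of 15: ZBTB16 with up to 52 reads, ZFP91 with 39, GSPT1 with 34 and RBX1 with 33. By share of regions these lists stood nearer the 15.7% of all gene loci. DMSO-only were 17.8% of the regions in the RAS list, 20.5% in the D cyclin list and 18.4% in the MYC network. In the BCL2 family it was 15.4%, and in the cereblon list 17.9%.

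The remaining lists lay near the 24.4% of all protein-coding genes or below it. By share of regions they stood between 6.25%, in the interferon list, and 15.7%, in the myeloma surface proteins, against 15.7% at all gene loci. That share was 8.33% for DNA replication and mitosis, 8.87% for the retinoid list and 13.8% for antigen presentation. DMSO-only regions were at 10 of 31 proteasome genes with PSMD6 at 68 reads, at 6 of 19 genes of the NF-kB pathway with CYLD at 64, at 5 of 16 AP-1 and BATF factors with MAFG at 75, and at 4 of 14 death receptor genes with TNFRSF10A at 91. They were at 7 of 25 genes of DNA replication and mitosis with CDC6 at 78, at 5 of 21 Wnt pathway genes with LEF1 at 96, at 4 of 18 myeloma surface proteins with NCAM1 at 107 and at 8 of 29 retinoid genes with RXRG at 64. Low counts were found in immune lists and in the markers of other lineages. Of 30 interferon-stimulated genes 2 had one, ISG20 with up to 48 reads and GBP2 with 42, of 24 antigen presentation genes, of which 7 had any region, 3, led by NLRC5 with 80, and of 23 ligands for T and natural killer cells 3, led by TNFSF4 with 85. Of the 8 markers of other lineages, PECAM1 alone had one, with 33 reads.

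Of 14 genes of the drug targets, the translocation and the plasma cell given whatever their values, 6 held a DMSO-only region, against 24.4% of all genes. CRBN, IKZF1, IKZF3, RARG, CYP26A1, SDC1, TNFRSF17 and CD38 held none. IRF4, the factor on which myeloma cells depend, held 3 with up to 24 reads, and its locus had 5 peaks in the ATRA-labelled list, 4 with POM, 4 with ATRA+POM and 8 with DMSO. MYC held 1 with 17 reads, with 5, 3 and 4 peaks in the treated lists and 6 with DMSO. NSD2 held 2 with 17 reads at most and FGFR3 1 with 17. RARA held 1 with 32 reads, and RARB, the receptor in the title of the study, 2 with up to 57 reads among 18 DMSO peaks, where the ATRA-labelled, POM and ATRA+POM lists had 13, 23 and 22. Of 1558 miRNA hairpins in the RefSeq table, 10 overlapped a DMSO-only region. By region, 0.0821% of DMSO-only regions met a miRNA gene, against 0.0729% of POM-only regions and 0.511% of regions of all 4 lists.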

How the data were processed

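The deposited files are 4 peak lists, each called from 1 ChIP library; they have no header and 10 columns. The authors' score is 10 times the −log10 p. The deposited fold enrichment is a ratio of the reads at the summit to a background. Whether that background was taken from the ChIP library or from its input is not given in the sources used here. The −log10 p and −log10 q are the authors' values, with no −log10 p under 5. The deposited summit position was read as an offset within the peak. Per the submitters' processing notes the build is hg38. Aligner, caller and antibody: not given in the sources used here.

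Reads and background at a summit were solved from fold and p under a Poisson model with 1 added to both. They came out whole within 0.02 for 36713 of 36742 ATRA-labelled, 54278 of 54279 POM, 47193 of 47193 ATRA+POM and 50946 of 50946 DMSO peaks. Depth is not stated; the lowest background value found at least 20 times, over the smallest peak width, gave relative depth. These are inferences.

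Gene spans, starts and promoter windows came from RefSeq tables of GRCh38.p14, the same build, for 19974 protein-coding genes. A locus is the gene with 5000 bp on both sides. No genome sequence was used, so motifs were sought in promoters only. The members, the 23 gene lists and the 22 motifs were chosen with earlier results of these data known. Named genes are the 10 strongest regions, the 10 strongest at a gene end, the 6 genes with the most regions, up to 4 members per list by reads, and 14 genes given whatever their values; others are said to be named after their values were seen or belong to the lists of loci with DMSO peaks alone. Some genes that the rule names are not reported here. Alternatives changed the peaks, overlaps, windows and lists used, and steps were tested on simulated data. The tools were matplotlib 3.10.9, pandas 2.3.3, scipy 1.17.1 and numpy 2.4.6 in Python 3.11.15.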

Additional observations from a re-analysis of the deposited data

How the results depend on the processing

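No paired analysis was possible because each treatment had 1 ChIP library. All 5 summary values changed under most settings, and the shares among them mostly by more than their counting intervals. The number of regions and the median reads have no such interval here. The 5 values are given in this order: number of DMSO-only regions, percent at a gene end, median summit reads, percent within 1000 bp of a peak of another list, and percent of genes with one at the locus. As reported they were 10968, 14.9%, 37, 40.2% and 24.4%. With the stronger 50% of each list by −log10 q they were 4164, 27.0%, 97, 28.4% and 14.1%. With the same number of strongest peaks, 36742, from each list they were 5448, 22.6%, 56, 36.9% and 16.5%. With peaks within 500 bp merged they were 5735, 8.75%, 39, 5.48% and 14.0%. Counting a DMSO peak as shared only where 50% of it was covered gave 15986, 17.0%, 44, 59.0% and 32.5%. A fold of at least 10 gave 404, 31.2%, 55.5, 36.9% and 1.60%. Without the ATRA-labelled list they were 13771, 13.0%, 41, 29.6% and 26.6%. A window of 3000 bp put 21.9% at a gene end, the gene body alone gave 18.8% of genes, and 52.8% lay within 5000 bp of a peak of another list. Where only the stronger or strongest peaks were kept, the lists were cut before the rule was applied. A partner among the dropped peaks then no longer counted. The 4164 regions of the stronger 50% are thus not the stronger members of the 10968. Of those members 728 reached the median reads of the DMSO list.

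Of 2 settings chosen after seeing the data, regions that would pass at the ATRA-labelled depth gave 2185, 14.8%, 67, 34.9% and 6.41%, and those farther than 1000 bp from a peak of another list gave 6559, 8.25%, 39 and 13.3% of genes, with the fourth value fixed by the setting. The share at a gene end was 27.0% for DMSO-only and 10.4% for POM-only regions in the stronger 50%, 22.6% and 7.75% with equal numbers of peaks, and 8.75% and 5.38% with peaks within 500 bp merged, so DMSO-only regions were higher in all 3. The stress response list held a DMSO-only region at 4 of 19 loci in the stronger 50%, against 14.1% of all genes, and at 13 of 19 where 50% of the peak had to be covered, against 32.5%. The other settings run for it lay between these, except a fold of at least 10, with 1 of 19 against 1.60%. The cause of these shifts was not tested. At the ATRA-labelled depth 19.9% of DMSO-only regions would pass, so depth limits what the absence of a peak there shows.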
